A study of Mus musculus with 10 samples.

Results

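The genes described here are grouped as inhibitors in negative feedback on NF-kB, a family of inflammatory transcription factors: Nfkbia, Nfkbib, Nfkbie, Nfkbiz, Bcl3, Tnfaip3 and Tnip1. They were chosen by name, and their members are all windows of open chromatin that the authors' annotation assigned to one of them. These were 42 of 35534 distinct regions, at 7 of 12770 genes, and they filled 102 of the 97788 entries of 4 lists of called windows. Of the 42 regions, 14 were called in every list, and all 14 also passed the filter on low values that left 14416 windows for testing.

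In resting cells NF-kB dimers such as p65 with p50 are held in the cytoplasm by IkB proteins. TNFa activates a kinase that marks IkB for destruction, and the freed dimers enter the nucleus and switch on, among many genes, those of their own inhibitors. Newly made IkBa pulls NF-kB off DNA again, the enzyme A20 trims the ubiquitin chains that carry the signal, and the nuclear IkB-like proteins Bcl-3 and IkB-zeta change which targets are read. In bone, TNFa restrains osteoblasts, whereas bone morphogenetic proteins such as BMP4 signal through Smad factors and promote their differentiation.

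Accessible chromatin was profiled by ATAC-seq, a method in which an enzyme inserts sequencing adapters where DNA is not covered by nucleosomes. The cells were MC3T3-E1, an established mouse osteoblast line, in 2.5% serum. Each of 4 groups had 2 libraries: cells given TNFa and BMP4 at 10 ng/ml each, cells given TNFa alone at 10 ng/ml, cells given BMP4 alone at 10 ng/ml, and untreated cells, labelled none. The sample labels give 3 h for each factor, whereas the protocol has TNFa present for 30 min before BMP4 was added for 3 h, so the length of the TNFa exposure is uncertain. Only the titles of the libraries with TNFa alone carry p65, for a reason the labels do not state, and values against that group carry this doubt. All libraries were in batch 1. No label says whether replicates were separate cultures, so the p-values reflect library-to-library spread, part or all of it possibly technical. A further 2 libraries of sonicated DNA served as background.

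Total tags per library ran from 16.5 to 30.1 M. Of these, 4.81% to 8.00% lay in the windows of the library's own list. The highest shares were 8.00% in BMP4 replicate 2 and 6.84% in untreated replicate 2. Depth moved with treatment: the 4 libraries given TNFa had at most 21.8 M tags and the 4 without had at least 26.0 M, and beyond the scaling of the libraries and the lists of equal length given with the results its part was not tested. Replicate 2 of the untreated group and replicate 2 of the BMP4 group stood apart from the other libraries, at 94.3 and 95.9 on a first principal component whose other values ran from -74.0 to 41.9. Leaving out only these 2 would set replicate 1 of the cells without TNFa against both replicates with it, so TNFa effects are also given within replicate 1 of each group, where neither enters, and within replicate 2. Within replicate 2 these 2 are the only libraries without TNFa. A TNFa effect there cannot be told apart from whatever sets them apart. Of 13 osteoblast marker genes 12 had a window in some list and 6 had a promoter window. These counts were 4 and 1 of 5 chondrocyte genes and 3 and 1 of 5 adipocyte genes. They were 3 and 0 of 8 endothelial or muscle genes and 2 and 0 of 8 haematopoietic genes. Levels are tags in a window scaled to the library's tags in tested windows (counts-per-million, CPM), after trimmed-mean scaling of the libraries. They are averages over a cell population, in which a larger share of open cells and more cutting in each cell cannot be told apart.

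Sequence is shown for the 4 promoters that hold an NF-kB motif near the main start site, because called windows lay differently around that motif between groups in some of them. Each line is the 250 bases before the start of transcription, 5′ to 3′ in the direction of the gene, from RefSeq on GRCm38.p6, the build that the files call mm10. Capitals mark a match, on either strand, to GGG, any 3 bases and TTCC. Nfkbia lies at chr12:55492648-55492897 (minus strand), Nfkbie at chr17:45555450-45555699 (plus strand), Tnfaip3 at chr10:19015411-19015660 (minus strand) and Tnip1 at chr11:54962941-54963190 (minus strand).
Nfkbia: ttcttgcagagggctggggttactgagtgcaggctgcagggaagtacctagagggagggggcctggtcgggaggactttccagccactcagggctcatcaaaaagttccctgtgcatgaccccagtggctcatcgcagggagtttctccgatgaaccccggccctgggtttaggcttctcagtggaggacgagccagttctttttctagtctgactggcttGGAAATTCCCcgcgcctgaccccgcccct
Nfkbie: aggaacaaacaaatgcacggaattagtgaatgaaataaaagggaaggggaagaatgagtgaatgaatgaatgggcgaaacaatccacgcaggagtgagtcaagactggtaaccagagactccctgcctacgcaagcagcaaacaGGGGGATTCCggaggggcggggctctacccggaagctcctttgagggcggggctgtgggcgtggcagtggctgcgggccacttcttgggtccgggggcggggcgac
Tnfaip3: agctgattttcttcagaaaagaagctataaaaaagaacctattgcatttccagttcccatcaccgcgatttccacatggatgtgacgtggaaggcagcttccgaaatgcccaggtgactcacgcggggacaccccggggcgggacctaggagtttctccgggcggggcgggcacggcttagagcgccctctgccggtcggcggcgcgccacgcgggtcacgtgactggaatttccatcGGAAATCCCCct
Tnip1: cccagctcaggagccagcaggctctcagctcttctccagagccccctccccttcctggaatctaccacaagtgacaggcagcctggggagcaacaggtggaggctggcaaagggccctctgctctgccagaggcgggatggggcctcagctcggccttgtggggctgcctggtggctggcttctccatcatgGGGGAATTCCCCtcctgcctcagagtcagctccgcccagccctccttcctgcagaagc
Counted from the start of transcription, with negative positions upstream, the match lay at -29 to -20 in Nfkbia, at -106 to -97 in Nfkbie and at -12 to -3 in Tnfaip3. In Tnip1 a pair of overlapping matches began at -58 and -56, and no list had a window over the bases shown. An alternative start of Tnfaip3 inside the gene also had a match, at -90 to -81. Of the 7 promoters of 6 of these genes in the table, 5 held the motif, against 4.65% of 32851 mouse promoters of the same length. The promoters of Bcl3 and Nfkbib held none, and Nfkbiz was not matched. The AP-1 motif TGANTCA was found in 2 of the 7 promoters, at Nfkbie and Tnfaip3, against 6.75% of all. The SMAD motif GGCGCC was in 2, at Bcl3 and Nfkbib, against 9.59% of all, and the SMAD palindrome GTCTAGAC in 1, at the alternative start of Tnfaip3, against 0.167%. Both strands were searched for each motif, and a match describes letters, not binding.

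Cells given TNFa had more called windows at these genes than cells without it. The 7 genes had 31 windows among 23745 in the list of TNFa with BMP4 and 32 among 23288 in the TNFa list. The BMP4 list held 20 among 24525, and the untreated list 19 among 26230. As a share of a list this was 0.131% with both factors and 0.137% with TNFa, against 0.0815% with BMP4 and 0.0724% in untreated cells. A list was called by the authors on the pooled replicates of a group, so these counts have no replicate of their own.

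The added windows lay mostly away from promoters. Introns of the 7 genes held 6 windows with both factors and 8 with TNFa, against 1 with BMP4 and 1 in untreated cells. Intergenic windows numbered 17 with both factors and 15 with TNFa, against 11 with BMP4 and 9 in untreated cells. Promoter windows numbered 7 with both factors and 8 with TNFa, against 7 with BMP4 and 8 in untreated cells. They made up 22.6% of these genes' windows with both factors and 25% with TNFa, where promoters were 34.4% and 35.0% of all windows. With BMP4 and in untreated cells they made up 35% and 42.1%, where promoters were 31.8% and 32.0% of all windows. Every list also had 1 window in the 5′ UTR of Tnip1.

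**Figure D1:**
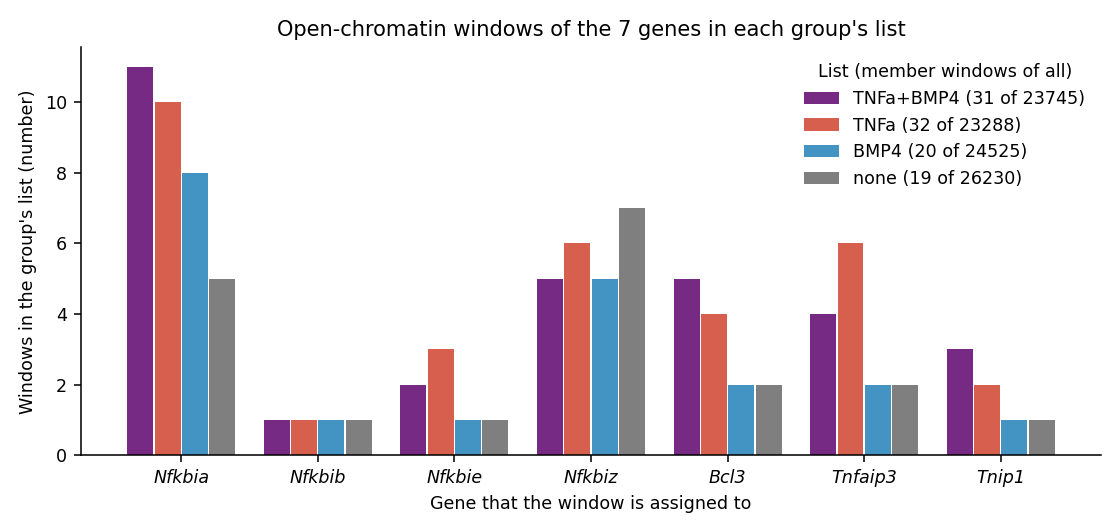
Number of called windows (y axis) assigned to each of the 7 genes (x axis), with 1 bar for each group's list. Nfkbia had 11 and 10 windows in the lists with TNFa and 8 and 5 in those without, while Nfkbib had 1 window in every list.

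The genes differed in this. Nfkbia, which encodes IkBa, had 21 windows over both TNFa lists against 13 over both lists without TNFa, and this difference of 8 was reached by 0.0462% of the 6495 genes with at least 5 windows in all. Tnfaip3, the gene of A20, had 10 windows with TNFa against 4 without, a difference reached by 0.477% of genes. Bcl3 had 9 against 4, reached by 0.878%. Nfkbie, the gene of IkBe, and Tnip1, which encodes the A20-binding protein ABIN1, each had 5 against 2, reached by 4.87% of genes. Nfkbib, the gene of IkBb, had 2 on each side, and Nfkbiz, the gene of IkB-zeta, had 11 with TNFa against 12 without. The genes were named with earlier results of these data known, so these shares describe where they lie and test nothing.

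Of the 42 regions, 9 were called in both TNFa lists and in no other, which was 21.4% of them against 4.18% of all regions. Only 2 were called in both lists without TNFa and in no other (4.76% against 7.36%). With every list brought to the length of the shortest, 9 of 42 again had the first pattern, against 5.56% of all regions. With the authors' adjusted p under 0.001 required in every list it was 2 of 27, at Bcl3 and Nfkbia, which at 7.41% was close to the 7.17% of all regions. The 14 regions called in all 4 lists made up 33.3%, against 42.5% of all regions. Counting a region called in any TNFa list and in no list without it gave 19 of 42, against 14.8% of all regions. The reverse pattern held 5 of 42, against 21.1% of all.

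The 9 regions lay at Nfkbia (3), Nfkbie (1), Bcl3 (2), Tnfaip3 (2) and Tnip1 (1), and none lay at Nfkbib or Nfkbiz. At Nfkbie the region was in intron 1, 1880 bp after the start (chr17:45557518-45557642), with 50.8 and 66.8 CPM in cells given both factors and 60.1 and 119.5 CPM with TNFa. The nearest window of either list without TNFa was 1807 bp away. A further window 2485 bp after the start of Nfkbie was called in the TNFa list alone, at 44.6 and 50.2 CPM.

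At Nfkbia a region 26848 bp after the start (chr12:55465737-55465861) had 38.1 and 29.4 CPM with both factors and 39.5 and 44.2 CPM with TNFa. Another, at -6586 bp, had 24.0 and 15.9 CPM with both factors and 12 and 27.5 CPM with TNFa. The remaining one of the 3 was at the start site and is described with the promoters.

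At Bcl3, whose protein joins p50 and p52 homodimers in the nucleus, a region in intron 2 (chr7:19817570-19817698) had 39.5 and 57.8 CPM with both factors and 41.2 and 77.7 CPM with TNFa. The other Bcl3 region, at -1576 bp, had 45.1 and 27.2 CPM with both factors and 41.2 and 28.7 CPM with TNFa. At Tnfaip3 this region was in an intron, 2463 bp after the alternative start inside the gene rather than the main start. Its levels were low, at 7.0 and 7.9 CPM with both factors and 5.1 and 15.5 CPM with TNFa. At Tnip1 the region in intron 1, 1281 bp after the start (chr11:54961597-54961721), had 39.5 and 43.0 CPM with both factors and 34.3 and 37.0 CPM with TNFa. None of these regions was called in cells without TNFa, and the lists give no level for them there.

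At the start sites of Nfkbia and Tnfaip3, windows were called in every group but at different positions, so that each gene gave 1 region to the pattern of both TNFa lists and 1 to the pattern of both lists without TNFa. Over all regions, 17.5% of those in both TNFa lists only had windows of both other lists within 150 bp, as did 2 of the 9 here. In the reverse pattern this was 9.60% of all regions and both of the 2 here.

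The Nfkbia window ran from -145 to -21 with both factors and from -178 to -54 with TNFa. It ran from -35 to 89 with BMP4 and from -34 to 90 in untreated cells. The NF-kB motif thus lay wholly inside the windows of the cells without TNFa, lay beyond the edge of the TNFa window, and ended 1 base past that of the TNFa and BMP4 window. In these windows both factors gave 109 and 82 tags (154 and 92.9 CPM) and TNFa gave 75 and 222 tags (129 and 265 CPM). BMP4 gave 34 and 121 tags (38.9 and 76.9 CPM), and untreated cells gave 29 and 99 tags (24.3 and 72.6 CPM). Every library given TNFa was above every library without it, though the windows compared lay at different positions. The share of other windows so ordered when matched in this way is not given here. The background libraries held 5 to 13 tags in each of these windows.

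The Tnfaip3 window shifted the other way. It ran from -15 to 109 in both TNFa lists and from -117 to 7 in both lists without TNFa, and every window held the motif. Levels were 64.8 and 30.6 CPM with both factors and 60.1 and 78.9 CPM with TNFa, against 24.0 and 53.4 CPM with BMP4 and 58.6 and 57.2 CPM in untreated cells. These overlapped between groups. At Nfkbie the window held the motif and had the same coordinates in all 4 lists, from -113 to 11.

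**Figure D2:**
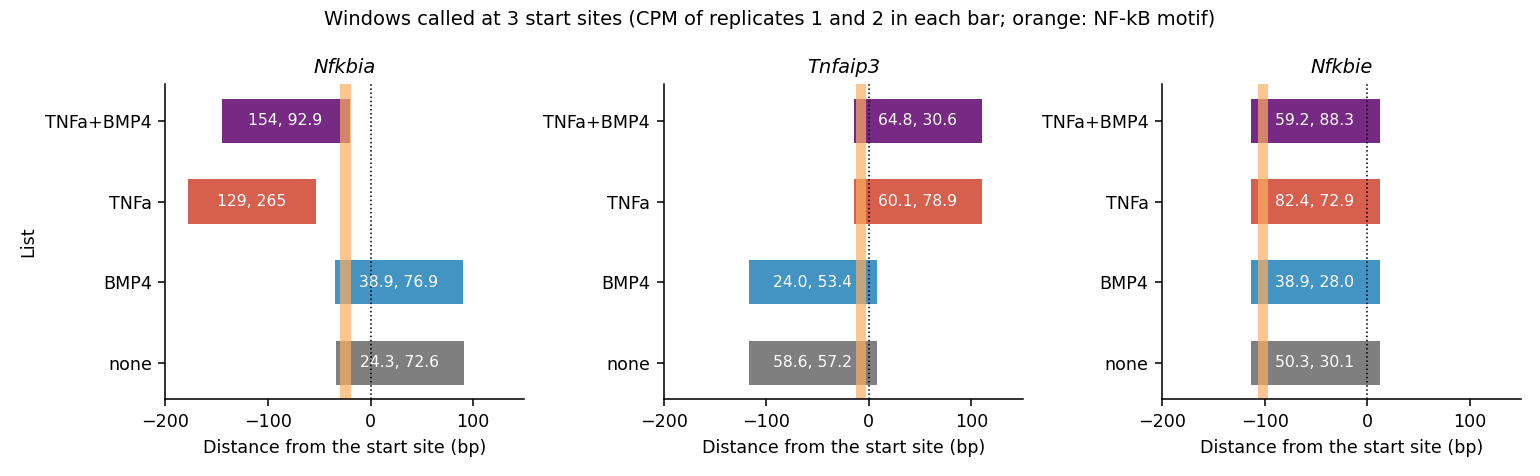
Position of the called windows (bars, x axis in bp from the start site) in each list (rows) at Nfkbia, Tnfaip3 and Nfkbie, with the CPM of replicates 1 and 2 written in each bar and the NF-kB motif in orange. Windows of the TNFa lists lay upstream of those of the other lists at Nfkbia, downstream at Tnfaip3, and at the same place at Nfkbie.

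The 14 windows called in every list allowed the levels of all 8 libraries to be compared. The average effect of TNFa, over cells with and without BMP4, was above 0 in 11 of the 14, where 49.9% of all tested windows were above 0. Its median was 0.53 on the log2 scale, against -0.0013 over all 14416 windows. With limma none of the 14 passed an adjusted p of 0.05, and neither did any other window (0.0% of all). At an unadjusted p under 0.05, 2 of the 14 were called and both were higher with TNFa, against 1.75% of all windows called higher and 4.36% in either direction. The effect was above 0 within replicate 1 in 13 of 14 (51.7% of all windows). Within replicate 2, where the libraries without TNFa were those that stood apart, it was above 0 in 11 of 14 (49.5% of all). With the replicate number as a block in the model, which takes out what libraries of 1 number share, 3 of the 14 passed an adjusted p of 0.05, all higher with TNFa, against 0.825% of all windows. No label ties libraries of 1 number, so calls made with the block rest on an assumed pairing. Windows of control genes with housekeeping roles, such as Actb and Gapdh, were above 0 in 18 of 23 with a median of 0.26, and none of them passed with or without the block. Scaling by total tags moved the median of all windows by -0.15 and left 11 of 14 above 0, with the members' median 0.52 above that of all windows. Windows of 1 gene can lie close together and are not independent of each other.

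Summed over the 14 windows, levels were 1038 and 935 CPM with both factors and 1152 and 1016 CPM with TNFa, against 690.1 and 655 CPM with BMP4 and 746 and 655 CPM in untreated cells. All 4 sums with TNFa were above all 4 without it, and the share of other genes whose sums were so ordered is not given here. The sum weighs windows with many tags most, among them those of Nfkbia, while the average TNFa effect was above 0 in 11 of the 14.

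**Figure D3:**
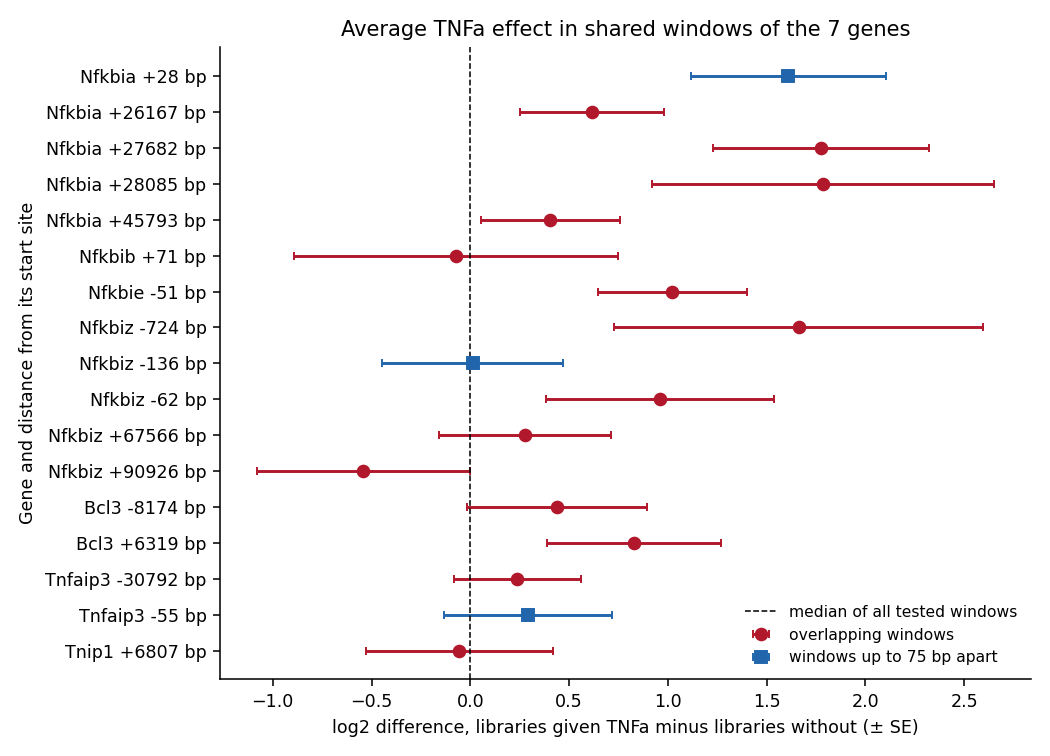
Average effect of TNFa (log2 difference of the 4 libraries given TNFa minus the 4 without, x axis) with its standard error, for the 14 windows that overlap in all 4 lists and for 3 whose windows lie up to 75 bp apart (rows, named by gene and distance from its start). The dashed line is the median of all tested windows, and 11 of the 14 points lie to its right.

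Nfkbia had 4 of these windows, all downstream of the gene, in addition to its start site. The window 27682 bp after the start (chr12:55464903-55465050) had 108.5 and 80.4 CPM with both factors and 128.7 and 98.0 CPM with TNFa, against 60.7 and 12.7 CPM with BMP4 and 46.1 and 17.6 CPM in untreated cells. All 4 libraries given TNFa were above the 4 others. The average TNFa effect was 1.77 ± 0.55 (log2, SE; limma adjusted p = 0.854), and this was one of the windows with an unadjusted p under 0.05. It was 1.13 within replicate 1 and 2.42 within replicate 2, and the adjusted p with the block was 0.0419. The effect was 1.25 to 2.30 with any 1 library left out, and 0.92 without both libraries that stood apart.

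The window 28085 bp after the start (chr12:55464500-55464624) had 200.2 and 65.7 CPM with both factors and 154 and 51.4 CPM with TNFa, against 105.3 and 8.26 CPM with BMP4 and 57.8 and 10.3 CPM in untreated cells. Replicate 1 was above replicate 2 in every group, and the groups overlapped, but within each number both TNFa libraries were above both others. The average effect was 1.79 ± 0.87 (limma adjusted p = 0.854), or 1.15 within replicate 1 and 2.42 within replicate 2. With the block its adjusted p was 0.0419. The effect was 0.94 to 2.64 with any 1 library left out, and 0.36 without both libraries that stood apart.

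The other Nfkbia windows varied less. At 26167 bp after the start, levels were 52.2 and 39.6 CPM with both factors, 61.8 and 34.6 CPM with TNFa, 45.8 and 34.3 CPM with BMP4, and 21.8 and 21.3 CPM in untreated cells. Here the untreated cells were below every treated library, BMP4 included. At 45793 bp after the start, the average effect was 0.40 ± 0.35, with 0.67 within replicate 1 and 0.14 within replicate 2.

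**Figure D4:**
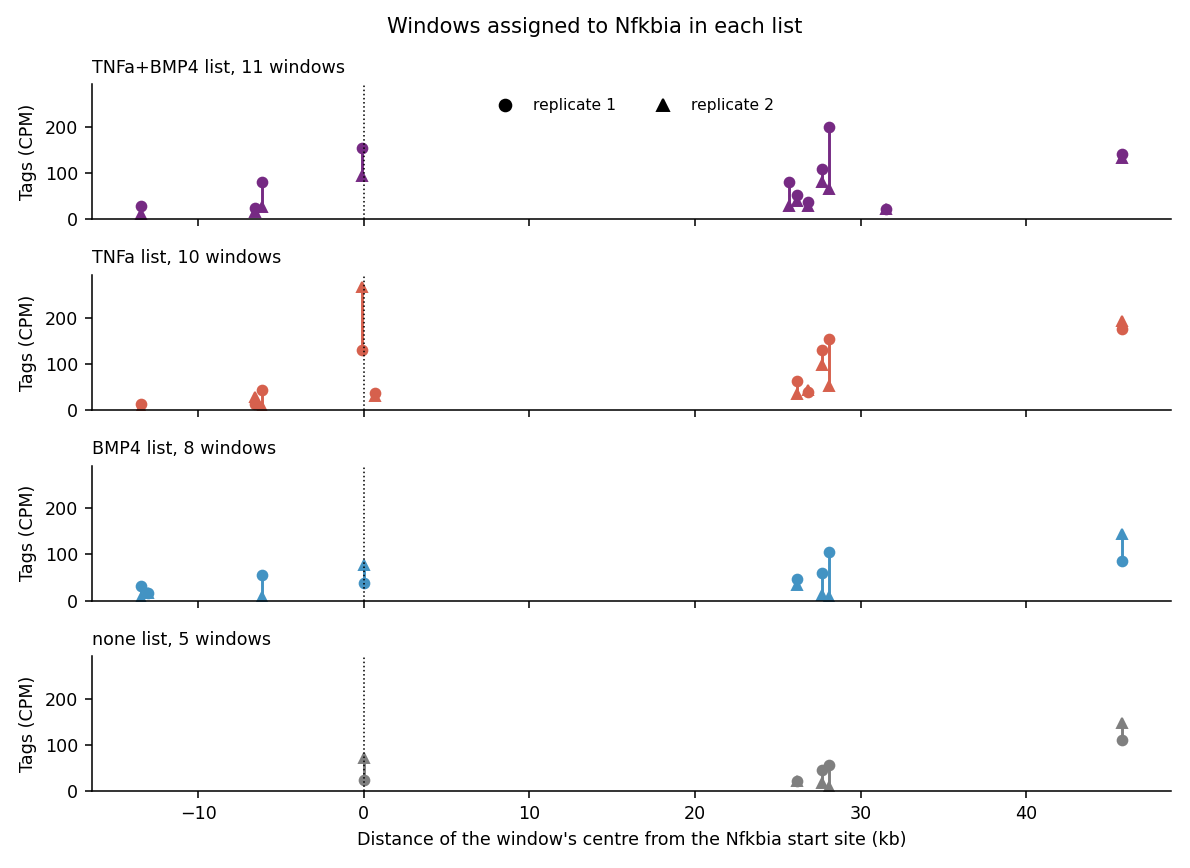
Tags in CPM (y axis) of replicate 1 (circles) and replicate 2 (triangles) in every window assigned to Nfkbia, by distance of the window from the start site in kb (x axis), with 1 panel for each list. The lists with TNFa hold 11 and 10 windows, and those without hold 8 and 5.

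The start site of Nfkbia entered a comparison over all libraries only when windows up to 75 bp apart were matched, an alternative added after the positions had been seen. Scaled with that set, its levels were 135 and 83.1 CPM with both factors and 115 and 234 CPM with TNFa, against 34.2 and 65.7 CPM with BMP4 and 22.1 and 62.1 CPM in untreated cells. The average TNFa effect was 1.61 ± 0.49 (limma adjusted p = 0.851). It was 1.25 to 1.96 with any 1 library left out, 2.11 within replicate 1 and 1.11 within replicate 2. Without both libraries that stood apart it was 2.18. With the block the adjusted p was 0.0491 (1.33% of the windows matched in this way passed). These counts come from windows at different positions, so a shift of the opening and a change of its height cannot be told apart. The start site of Tnfaip3, matched in the same way, had an effect of 0.29 ± 0.43, with 0.69 within replicate 1 and -0.10 within replicate 2.

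Nfkbie encodes IkBe, a further cytoplasmic IkB. At its start site (chr17:45555587-45555711) levels were 59.2 and 88.3 CPM with both factors and 82.4 and 72.9 CPM with TNFa, against 38.9 and 28.0 CPM with BMP4 and 50.3 and 30.1 CPM in untreated cells. The libraries given TNFa were all above those without. The average effect was 1.02 ± 0.38 (limma adjusted p = 0.854), the other window with an unadjusted p under 0.05, and was 0.64 within replicate 1 and 1.41 within replicate 2. Nfkbib encodes IkBb. At its start site levels were 22.6 and 102 CPM with both factors and 39.5 and 121 CPM with TNFa, against 11.4 and 133 CPM with BMP4 and 63.7 and 131 CPM in untreated cells. Replicate 2 was above replicate 1 in every group there, and the average TNFa effect was -0.07 ± 0.82, with 0.10 within replicate 1 and -0.25 within replicate 2.

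Nfkbiz had 4 shared windows. At the start inside the gene (chr16:55822138-55822262), levels were 161 and 161 CPM with both factors and 206 and 102 CPM with TNFa, against 138 and 42.0 CPM with BMP4 and 155 and 38.9 CPM in untreated cells. The groups overlapped, and the average effect was 0.96 ± 0.58, with 0.31 within replicate 1 and 1.62 within replicate 2. Without both libraries that stood apart it was 0.052. At -724 bp from the other start (chr16:55839297-55839427), levels were 113 and 35.1 CPM with both factors and 92.7 and 14.3 CPM with TNFa, against 69.8 and 3.81 CPM with BMP4 and 22.6 and 4.40 CPM in untreated cells. Replicate 1 was above replicate 2 in every group, and the average effect was 1.66 ± 0.93, with 1.31 within replicate 1 and 2.01 within replicate 2. Its adjusted p was 0.854 in limma and 0.0464 with the block. The effect was 0.75 to 2.57 with any 1 library left out, and 0.26 without both libraries that stood apart. The distal windows, 67566 and 90926 bp after the start inside the gene, had effects of 0.28 ± 0.44 and -0.54 ± 0.54. Within replicate 1 they were 0.034 and 0.059, and within replicate 2 they were 0.52 and -1.14.

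Bcl3, the other nuclear IkB-like gene, had a shared window in intron 2 (chr7:19816355-19816498). Levels were 28.2 and 29.4 CPM with both factors and 34.3 and 60.9 CPM with TNFa, against 9.16 and 28.6 CPM with BMP4 and 18.4 and 29.3 CPM in untreated cells. The average effect was 0.83 ± 0.44 (limma adjusted p = 0.854), with groups that overlapped, and it was 1.13 within replicate 1 and 0.52 within replicate 2. Without both libraries that stood apart it was 1.32. The Bcl3 window at -8174 bp had an effect of 0.44 ± 0.46, with 0.97 within replicate 1 and -0.10 within replicate 2.

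At Tnfaip3 and Tnip1, whose proteins act together on ubiquitin chains, the average effects in shared windows were smaller than their standard errors. The Tnfaip3 window at -30792 bp (chr10:19046140-19046278) had 28.2 and 29.4 CPM with both factors and 29.2 and 28.7 CPM with TNFa, against 25.2 and 23.5 CPM with BMP4 and 21.8 and 26.4 CPM in untreated cells. All libraries given TNFa were above the others, by a small margin, and the effect was 0.24 ± 0.32, or 0.27 within replicate 1 and 0.21 within replicate 2. The Tnip1 window 6807 bp after the start, in the 5′ UTR of exon 2, had 47.9 and 78.1 CPM with both factors and 42.9 and 112 CPM with TNFa, against 36.6 and 76.3 CPM with BMP4 and 109 and 69.7 CPM in untreated cells. Its effect was -0.06 ± 0.47, with -0.47 within replicate 1 and 0.35 within replicate 2. Counting the groups that did not overlap, 3 of the 14 windows were higher in all 4 libraries given TNFa, where 1.82% of all windows were.

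**Figure D5:**
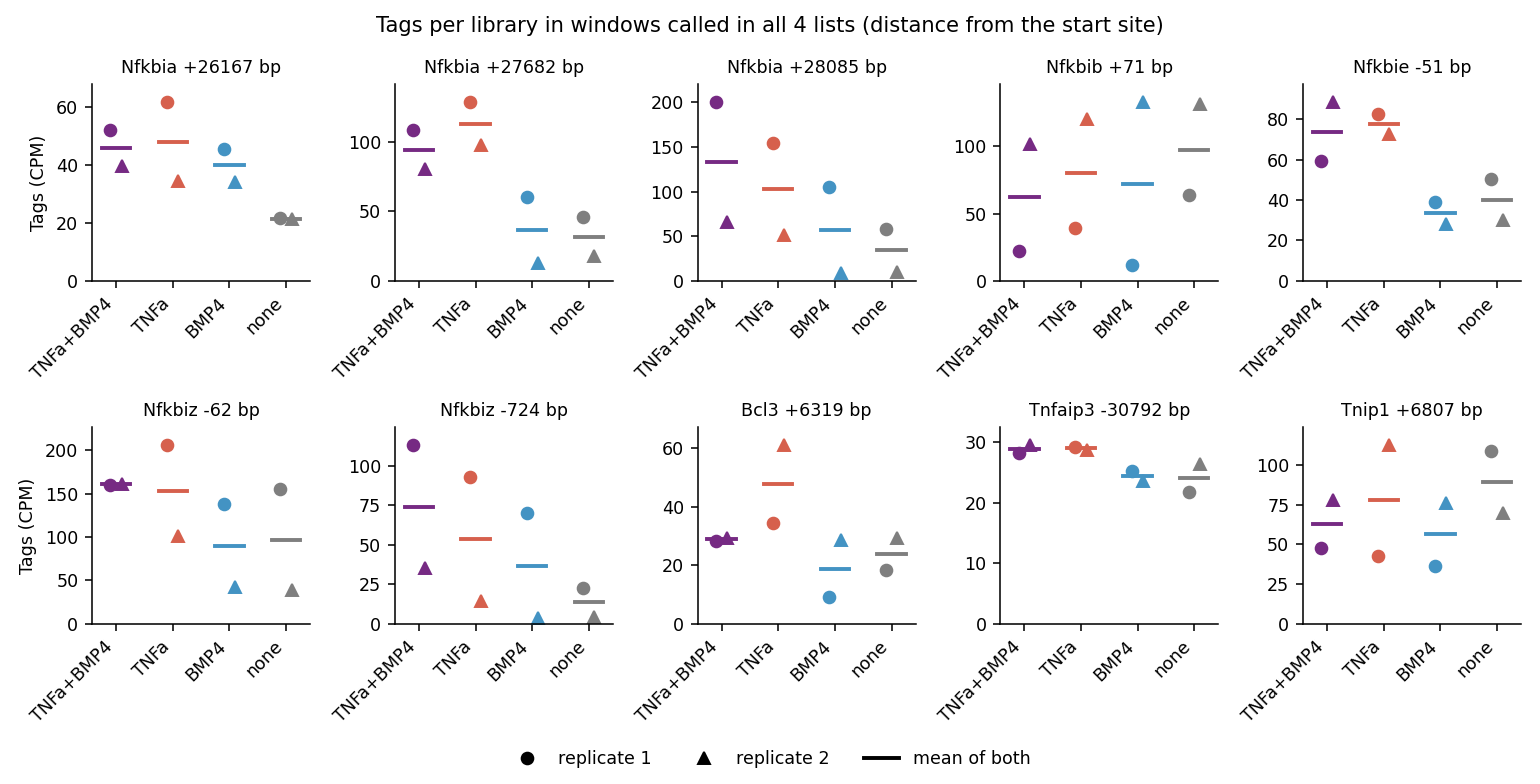
Tags in CPM (y axis) in each library (circles, replicate 1; triangles, replicate 2; bars, mean) of the 4 groups (x axis), in 10 windows called in all 4 lists. Libraries given TNFa are above those without at Nfkbia +27682 bp, Nfkbie -51 bp and Tnfaip3 -30792 bp, while Nfkbia +28085 bp, Nfkbiz -724 bp and Nfkbib +71 bp differ as much between replicates.

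The separate comparisons share libraries, so their values are given side by side. TNFa alone against untreated cells was above 0 in 11 of 14 windows (50.0% of all windows) with a median of 0.79, and in 8 of 14 both TNFa libraries were above both untreated ones, against 8.88% of all windows. The 8 lay at Nfkbia (3), Bcl3 (2), Nfkbie, Nfkbiz and Tnfaip3. Windows of the control genes were above 0 in this comparison in 19 of 23, with a median of 0.31. With limma 1 of the 14 had an unadjusted p under 0.05 (1.05% of all windows did), and no window passed the adjusted threshold (0.0%). BMP4 alone against untreated cells was above 0 in 6 of 14 (50.6% of all), with a median of -0.02, and 1 window, at Nfkbia 26167 bp after the start, was higher without overlap (8.32% of all). At an unadjusted p under 0.05 it called 0 of the 14 and 0.194% of all windows.

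TNFa with BMP4 against untreated cells was above 0 in 10 of 14 (49.7% of all), with a median of 0.26, and 7 of 14 were higher without overlap (16.8% of all). Against BMP4 alone it was above 0 in 13 of 14 (49.9% of all), with a median of 0.27, and 4 of 14 were higher without overlap (11.7% of all). Scaled by total tags, these counts above 0 were 9 and 12. The windows of the control genes had medians no lower: 21 of 23 were above 0 against untreated cells, with a median of 0.30, and 15 of 23 against BMP4, with a median of 0.36. At an unadjusted p under 0.05 limma called 0 of the 14 in each, and 2.48% and 1.60% of all windows.

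Adding BMP4 to TNFa gave no value past the threshold in either direction. TNFa with BMP4 against TNFa alone was above 0 in 4 of 14 windows (51.3% of all), with a median of -0.14 against 0.01 over all windows. No window of the 14 was higher without overlap (8.38% of all were), and 4 were lower, against 8.93% of all. These were both Bcl3 windows, Nfkbia 45793 bp after the start and Nfkbiz 67566 bp after the start inside the gene. At Nfkbia 45793 bp, levels were 141 and 132 CPM with both factors and 175 and 194 CPM with TNFa alone, a difference of -0.42 ± 0.50. Limma called 0 of the 14 at an unadjusted p under 0.05, and 0.257% of all windows. The interaction, the difference between the TNFa effects with and without BMP4, had a median of -0.05 and ran from -0.85 to 0.64. No window of the 14 or of all 14416 had an interaction with an unadjusted p under 0.05 in limma. With 2 libraries a group, its standard errors were at least 0.64 on the log2 scale.

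Other genes of the pathway were read from 4 lists. For the response genes, such as chemokines and adhesion molecules, 31 windows at 14 genes were tested, and the TNFa average effect was above 0 in 26 (49.9% of all windows) with a median of 0.69. With limma 9 had an unadjusted p under 0.05, all higher, against 1.75% of all windows called higher. The subunit genes had 8 of 11 windows above 0 (median 0.16), the other negative regulators 8 of 14 (median 0.09) and the receptor and kinase arm 4 of 14 (median -0.22). At the same unadjusted threshold, 2 of the 14 windows of the other negative regulators and 1 of the 11 of the subunit genes were called, all higher. For the receptor and kinase arm it was 1 of 14, which was lower, where 4.36% of all windows were called in either direction. No window of any of the 4 lists passed an adjusted p of 0.05 in either direction without the block. With it 4 windows of the response genes and 1 of the subunit genes passed, all higher. Regions called in both TNFa lists only (4.18% of all regions) numbered 15 of 104 at the response genes, 4 of 42 at the other negative regulators, 4 of 39 at the receptor and kinase arm and 0 of 15 at the subunit genes.

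Over these 4 lists the highest effects were at the chemokine gene Ccl2, the cytokine gene Lif and the subunit gene Nfkb2. The Ccl2 window at -2492 bp had 62.0 and 109 CPM with both factors and 87.5 and 174 CPM with TNFa, against 17.2 and 27.3 CPM with BMP4 and 16.8 and 35.9 CPM in untreated cells. Its effect was 2.03 ± 0.45, with all libraries given TNFa above the others. The effect was 1.94 ± 0.55 at Lif and 1.86 ± 0.65 at the start of Nfkb2. The lowest were at the TAK1 adaptor gene Tab2 (-1.33 ± 0.42), at Nfkb1, the gene of p105 and p50 (-0.89 ± 0.63), and at the deubiquitinase gene Cyld (-0.73 ± 0.50), a further negative regulator. All 6 had an adjusted p of 0.854 in limma. With the block it was 0.0154 at Ccl2, 0.0338 at Lif and 0.0419 at Nfkb2, and from 0.0868 to 0.242 at the others. Within replicate 1 and within replicate 2 the effects were 2.00 and 2.07 at Ccl2, 1.56 and 2.31 at Lif, and 1.03 and 2.69 at Nfkb2. They were -0.74 and -1.92 at Tab2, -0.47 and -1.31 at Nfkb1, and -0.75 and -0.71 at Cyld.

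The genes whose summed level was most like that of the 7 genes over the 8 libraries, among 8412 genes, were Atp2b4 (Pearson r = 0.961), Pdgfb (0.957), Llph (0.949), Rassf6 (0.942) and Mir1932 (0.941). Pdgfb, which encodes a platelet-derived growth factor chain, had 242 and 207 CPM with both factors and 240.3 and 151 CPM with TNFa, against 60.7 and 45.8 CPM with BMP4 and 62.0 and 60.1 CPM in untreated cells. The points are the same libraries for every gene and share their depth, so these values only order the genes.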

How the data were processed

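ATAC-seq tags were analysed from 8 libraries of MC3T3-E1 cells in 4 groups and 2 background libraries. Per the submitters' processing notes, the authors used HOMER 4.11, Bowtie2 2.5.1, Trimmomatic 0.39, deepTools 3.5.1 and Picard 2.25.1 with build mm10. For the transposase, a correction of read ends was not given in the sources used here. HOMER called 125 bp windows from each group's replicates together, with the background libraries as control and DESeq2 at an adjusted p of 0.05 and a log2 fold of 1, per the file headers. The deposited lists give each window's position, nearest gene, a peak score, and the log2 fold change against background with a p-value. The peak score and the fold change were not used in a test, and the p-value only in a stricter alternative. The columns per library, tag counts per the file headers, hold regularised log2 values that the authors fitted in each list separately.

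To bring the lists to 1 scale, the equation of the regularised log was solved for tag counts, with constants fitted per list. The results lay within 0.1 of a whole number for 99.997% of values in the list of both factors, 99.99% with TNFa, 99.28% with BMP4 and 99.94% in untreated cells, and for all values of the 7 genes. With the constants moved by 5%, 16.4% to 19.0% did. Where a window had the same coordinates in a pair of lists, the recovered background counts were equal in 100% of cases. The solution was tried on values made with the same equation and constants, which cannot show that these are right for the deposited values. The fit was tried on counts simulated with a fixed spread not taken from these libraries. It therefore does not show how the fit performs at the spread seen here.

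Windows of different lists were matched at an overlap of 63 bp or more (50%), which gave 14471, 14416 of which passed a filter on low values (a depth-scaled count of 10 in 2 libraries, 15 in all). Of these, 2909 had identical coordinates, and the median shift was 8 bp. A group's counts were read from its own list. Log2 values of TMM-scaled counts (trimmed mean of M-values) plus a pseudocount of 2 were fitted with limma 3.58.1 (R 4.3.3) with a mean-variance trend, with 1 term, the group, for the 8 libraries. The libraries are numbered 1 and 2 in each group, and no label says that a number marks a shared culture or day. Differences between replicates 2 and 1 correlated across windows in all 6 pairs of groups, by 0.105 to 0.764, above the 0.1 taken as a sign of pairing, so values with the number as a block are given where they change a call. The lowest pair, both factors and untreated, barely exceeded it. Replicate 2 of both factors correlated by 0.903 with untreated replicate 1 and by 0.569 with untreated replicate 2. For BMP4 replicate 2 and untreated replicate 2 this was 0.953. Whether a number marks a pairing was not tested. Two-sided p-values were adjusted over all windows (Benjamini-Hochberg). Fold changes on this scale understate the change of low windows. Distances are those of the window of the untreated list, where it has one. Gene assignment is to the nearest start site, and links no window to a gene's control. Tables and figures were made with Python 3.11.15.

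The members and all gene lists were chosen with earlier results of these data known. Windows given with every library were, for each gene, the shared window nearest its start and that with the largest TNFa effect, with every region called in both TNFa lists only or both others only. For the pathway lists they were the 3 highest and 3 lowest. The Nfkbia window 27682 bp after the start and the 4 windows lower with both factors than with TNFa alone were added after their values were seen. Alternatives covered scaling, pseudocount, filter, overlap, stricter calls, weights, deposited values, the replicate number and single libraries. No genome sequence was used, so distal windows are given by position.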

Additional observations from a re-analysis of the deposited data

How the results depend on the processing

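Without the replicate number as a block, no alternative brought a member window past an adjusted p of 0.05. With it 3 of the 14 windows passed for the average TNFa effect, and it changed no call for these windows in the other comparisons. The block leaves estimates as they are and changes their error. Of 156 recomputed medians of the 14 windows, 133 stayed within 0.17 (1 SD between replicates). Those that moved further were, with overlaps of at least 80%, 0.81 for the average TNFa effect and 0.72 for TNFa with BMP4 against BMP4. With the authors' adjusted p under 0.001 they were 0.95 for both factors against untreated and -0.31 for both against TNFa. A mean count of at least 30 gave 0.55 for both factors against untreated. Deposited values minus background gave 0.60 for TNFa against untreated, -0.19 for BMP4 against untreated, 0.44 for both against BMP4 and 0.16 for the interaction. Without the 2 libraries that stood apart, chosen after seeing the data, replicate 1 of cells without TNFa is set against both replicates with it, and values were 0.58 for TNFa against untreated, 0.51 for both against untreated and 0.58 for both against BMP4. The cause was not tested. Leaving out 1 library gave 0.36 to 0.67 for the average TNFa effect, 0.59 to 0.80 for TNFa against untreated, 0.047 to 0.55 for both against untreated, 0.14 to 0.79 for both against BMP4, -0.37 to -0.14 for both against TNFa, -0.42 to -0.0023 for BMP4 against untreated and -0.22 to 0.030 for the interaction. Single effects changed sign at Tnip1 6807 bp (-0.37 to 0.29 with 1 library left out, 0.034 without both that stood apart, 0.35 within replicate 2) and Nfkbib 71 bp (-0.90 to 0.75, 1.00 without both, 0.10 within replicate 1). They also did at Nfkbiz 67566 bp (-0.075 to 0.64 with 1 left out), Nfkbiz 90926 bp (0.047 without both, 0.059 within replicate 1) and Bcl3 -8174 bp (-0.10 within replicate 2). Regions called in both TNFa lists only fell to 2 with the authors' adjusted p under 0.001, where all regions had 7.17%. Regions called in both lists without TNFa only were then 1, and were 0 with an overlap of 1 bp or with windows within 500 bp joined, and regions in all 4 lists were 5 at the stricter p. Standard errors of the average effect were 0.32 to 0.93 with 2 libraries a group.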
